A study of Drosophila melanogaster with 20 samples.

Results

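The neprilysin genes described here are Nep1, Nep2, Nep3, Nep4, Nep5, Nep7 and Nepl4, 7 genes of the M13 family of peptidases among 11780 genes present in both deposited tables. They were taken by name from a list selected on diet differences already known from these same libraries. Their diet differences are therefore given as a description, with no test. Brain RNA of *Drosophila melanogaster* was sequenced in 20 libraries, 5 in each of 4 groups of sex and diet. All flies were wild-type W1118 aged 4 to 7 days. Male LPHC flies (low protein, high carbohydrate) had a protein to carbohydrate ratio of 0:1 at 180 g/L and male HPLC flies (high protein, low carbohydrate) 1:1 at 180 g/L. Female LPHC flies had 1:2 at 360 g/L and female HPLC flies 1:1 at 90 g/L. In females the concentration of the food changed along with the ratio, so sex, recipe and deposited table cannot be told apart. If g/L counts protein plus carbohydrate, female LPHC food held more protein per litre than female HPLC food, whereas male LPHC food held none. LPHC in both sexes is therefore a shared label and not the same change of protein. The series concerns diet and sleep, and its design text names the 0:1 and the 1:1 diet at 180 g/L for the longest and the shortest sleep. How many brains make up a library, and whether replicates were raised apart, is not in the labels.

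Neprilysins are zinc metallopeptidases, most of them anchored in the cell membrane with the active site outside the cell, that cut small signalling peptides and so end their action. In mammals the family is known for degrading enkephalins, tachykinins and amyloid-beta. Flies carry a larger set, and fly neprilysins are known to cleave peptides such as tachykinins and the clock peptide PDF. Nep1, Nep2, Nep3 and Nep4 have been studied in fly memory, Nep2 also as a secreted enzyme, and Nep4 for cleaving peptides that act on feeding and insulin signalling. No role is given here for Nep5, Nep7 and Nepl4. Whether Nepl4 and the other genes named Nepl encode active enzymes was not examined, and M13 below means membership of the family only.

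Libraries held 13901684 to 35077559 recovered reads. The deposited values, called normalised counts below, are counts scaled by a single factor for each library, and the sexes were normalised in separate tables. All 7 genes passed the filter for testing in both tables, a normalised count of 10 or more in at least 5 libraries. Nep5 came closest to it, with 9 male libraries and 8 female libraries at 10 or more, 3 of the latter on HPLC. Differences are LPHC minus HPLC on the log2(normalised count + 1) scale with the standard error (SE) of the limma fit, and n = 5 libraries per group. Values after ± are SD. The libraries labelled brain also held reads of genes that mark other tissues. In males the fat body markers (15 in the table) took 1.58% to 1.77% of reads on HPLC and 0.395% to 0.58% on LPHC. The male glia markers (14) took 0.318% to 0.349% and 0.193% to 0.225%, and the muscle markers (16) 0.338% to 0.423% and 0.637% to 0.817%. In females the same lists took 2.32% to 3.05% and 2.13% to 2.49% for fat body, 0.35% to 0.427% and 0.386% to 0.44% for glia, and 0.26% to 0.33% and 0.238% to 0.309% for muscle. Neuron markers (14) took 0.691% to 0.739% and 0.814% to 1.04% in males, and 0.295% to 0.414% and 0.324% to 0.434% in females. No marker of these 4 lists was at 0 in every library of a group. Their part in the differences below was not tested, and in whole tissue fewer cells of a type and less RNA per cell cannot be told apart.

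The 7 genes did not share a direction. On LPHC, Nepl4 was higher in both sexes and Nep7 lower in both. Nep5 was higher on LPHC in females and lower in males, Nep1 was higher in males, and the means of Nep2, Nep3 and Nep4 differed by at most 27.6%. Equal library totals instead of the deposited scaling moved the smaller differences by more than 1.5 times, in males to 0.66 for Nep1, 0.46 for Nep3 and −0.12 for Nep4, and in females to 0.40 for Nep2 and −0.31 for Nep4. In males the 2 diets did not overlap for 3 genes, Nepl4 and Nep1 higher and Nep7 lower. Over all 10115 genes tested in males, 19.0% were higher and 23.7% lower without overlap. In females the groups were apart for 4 genes, Nepl4 and Nep5 higher and Nep4 and Nep7 lower, against 12.0% higher and 10.1% lower among all 9932 genes tested. Since the list was chosen by these contrasts, nothing is read from the counts. The median difference of the 7 genes was −0.18 in males and −0.08 in females, beside 0.02 and −0.02 over all genes tested.

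**Figure D1:**
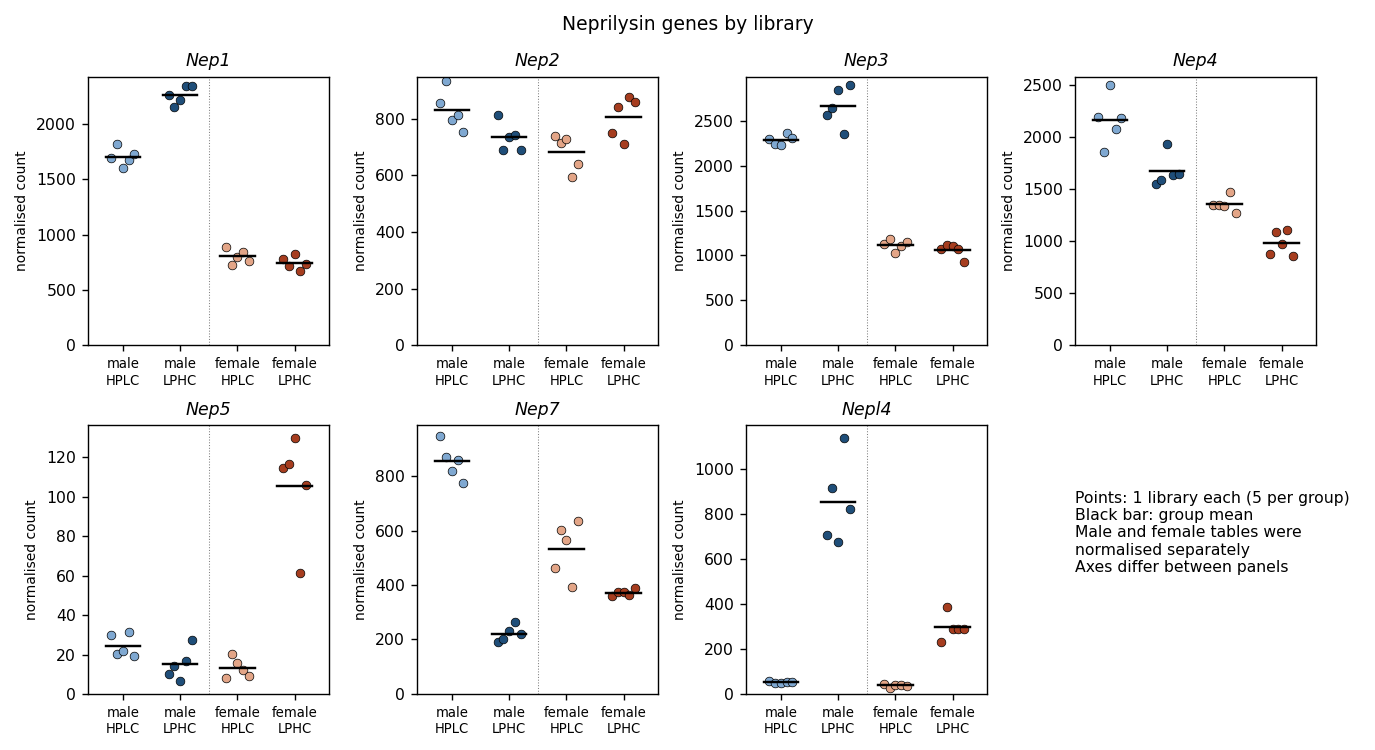
Normalised count of each of the 7 genes (vertical axes, which differ between panels) in the 20 libraries by group; points are single libraries and bars are means of 5. Nepl4 on LPHC lies above every HPLC library of the same sex, Nep7 lies below, and Nep5 stands high in female LPHC libraries, from 61.3 to 130.0.

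Nepl4 had the largest diet difference of the 7 genes on the log2 scale in males. In male HPLC libraries its normalised counts were 57.6, 49.3, 50.5, 51.4 and 53.7, and in male LPHC libraries 706, 918, 677, 1139.9 and 825. Every male LPHC library stood far above every male HPLC library, and the HPLC libraries lay close together. The means were 52.5 ± 3.29 and 853 ± 187, a ratio of 16.3 and a log2 difference of 3.97 (SE 0.13). In female HPLC libraries the values were 46.0, 27.0, 40.9, 38.7 and 36.3, and in female LPHC libraries 231, 388, 288, 289 and 291. The female groups were also apart, with means of 37.8 ± 7.03 and 297 ± 56.5. That is a ratio of 7.87 and a log2 difference of 2.94 (SE 0.16). The HPLC levels of the sexes lay near each other, and the male difference exceeded the female one by 1.03 on the log2 scale (SE 0.21). The gene rested on 45 to 69 reads per male HPLC library and 24 to 44 per female HPLC library, so its low state was measured on few reads. Leaving out any 1 library kept the male difference between 3.86 and 4.05 and the female one between 2.83 and 3.03.

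In the Ensembl annotation of the BDGP6 assembly no other gene's exons overlap those of Nepl4. The next protein-coding gene downstream of Nepl4 is slam (slow as molasses), known for its part in forming cells in the early embryo. Counts of slam were 43.0 ± 12.3 on HPLC and 225 ± 65.7 on LPHC in males, a rise of 2.36 (SE 0.22, limma adjusted p = 5.79e-07). In females they were 36.6 ± 11.6 and 104 ± 15.3, a rise of 1.52 (SE 0.20, adjusted p = 2.73e-05). Both genes were therefore higher on LPHC in both sexes, and in male LPHC libraries replicate 4 was the highest and replicate 3 the lowest for each. After the group means were taken out, their correlation over the 20 libraries was 0.134, HPLC libraries with few reads of either gene included. In male LPHC replicates 1 to 5 slam had 185, 266, 149, 314 and 210, the same order of libraries as for Nepl4. In female LPHC replicates 1 to 5 it had 116, 117, 96.9, 80.4 and 108, an order that differed from that of Nepl4. Whether reads that run on from Nepl4 contribute to slam was not tested. Nepl5 and Nepl6, a pair of M13 genes that adjoin each other, went the other way. Nepl5 went from 494 ± 12.5 to 370.2 ± 64.8 in males (−0.43, adjusted p = 0.002; under equal library totals −0.18, adjusted p = 0.109) and from 397 ± 24.1 to 269.8 ± 26.4 in females (−0.56, adjusted p = 0.000131). Nepl6 fell by 1.50 in males (adjusted p = 6.32e-07) and by 0.96 in females (adjusted p = 7.22e-06).

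**Figure D2:**
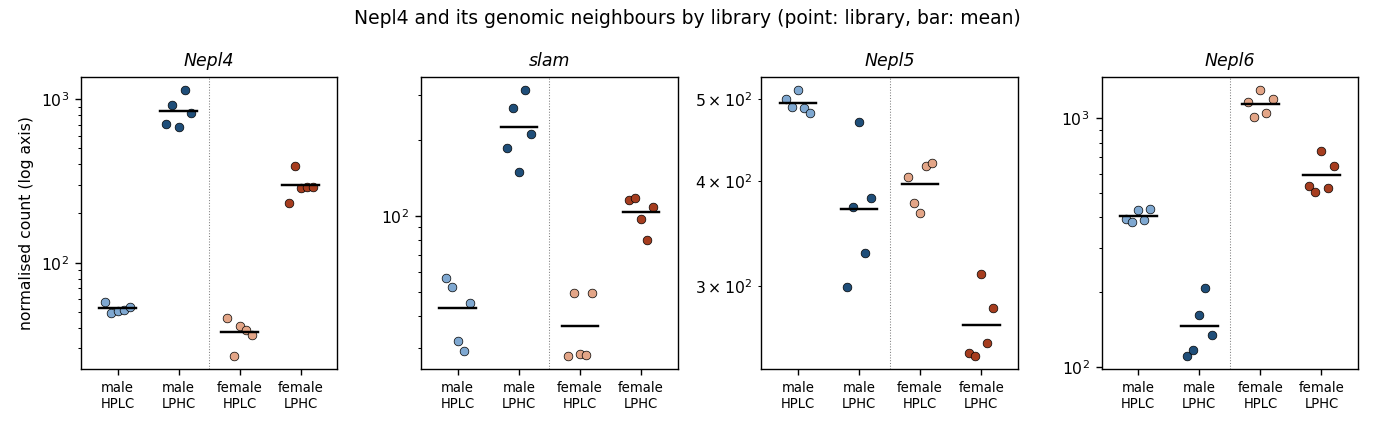
Normalised count (log axes, which differ between panels) of Nepl4, slam, Nepl5 and Nepl6 in the 20 libraries by group, with points for libraries and bars for means. The adjoining genes Nepl4 and slam are higher on LPHC in both sexes, and Nepl5 and Nepl6, which adjoin each other, are lower.

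Nep7 had the most negative diet difference of the 7 genes on the log2 scale in males. Its normalised counts were 948, 869, 819, 859.7 and 775 in male HPLC libraries and 189.7, 201, 233, 263 and 220.3 in male LPHC libraries. The lowest HPLC library thus stood well above the highest LPHC library. The means were 854 ± 64.3 and 221 ± 28.6, HPLC being 3.86 times LPHC, with a log2 difference of −1.95 (SE 0.09). Female HPLC libraries held 463, 601, 564, 392 and 636, and female LPHC libraries 360.2, 376, 374, 364 and 389. These groups came close without overlapping: HPLC replicate 4, at 392, was just above the highest LPHC library, at 389. The female means were 531 ± 101 and 373 ± 11.2, a log2 difference of −0.49 (SE 0.11). The male difference minus the female one was −1.46 on the log2 scale (SE 0.15). In the same libraries the fat body markers also took a lower share of male reads on LPHC. All 12 of those tested fell in males (median −3.11), where 29.6% of all genes tested fell. The gut markers went from 0.117% to 0.146% of reads on male HPLC to 0.0138% to 0.0241% on male LPHC, and from 0.154% to 0.194% to 0.0874% to 0.115% in females. The part of either list in the values of Nep7 and the other M13 genes was not tested. Female HPLC replicate 4, low in Nep7, had the lowest fat body share of its group, 2.32% of reads against 2.75% to 3.05%. This library was also the lowest of its group for glia (0.35%), haemocyte (0.0845%) and gut markers (0.154%). It was the highest for neuron (0.414%), photoreceptor (4.85%) and muscle markers (0.33%), and the part of these lists was not tested. Without this library the female difference was −0.59.

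Nep4 was modestly lower on LPHC in both sexes. Male HPLC libraries had normalised counts of 2192, 1861, 2501, 2075 and 2183, and male LPHC libraries 1549.6, 1591, 1936, 1639 and 1649. LPHC replicate 3, at 1936, exceeded HPLC replicate 2, at 1861, so the male groups overlapped. The male means were 2162 ± 232 and 1673 ± 152 (log2 −0.37, SE 0.08). In females HPLC libraries had 1349, 1344, 1338, 1476 and 1271, and LPHC libraries 875, 1088, 972, 1110.1 and 859.5. The female groups were apart, with means of 1355 ± 74.4 and 981 ± 116 (log2 −0.47, SE 0.08). The difference between sexes was 0.10 (SE 0.12), smaller than its error. Muscle markers took more of the reads on LPHC in males, where 13 of 15 tested rose and 0 fell (27.6% and 29.6% of all genes), and in females 8 of 14 fell (14.8% of all genes). Of the glia markers 13 of 14 fell in males (median −0.63), and in females 5 rose and 4 fell of 14 (16.7% and 14.8% of all genes). Nep4 is known in flies from muscle and from glia, and the part of either in its difference was not tested.

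Nep1 and Nep3 were higher on LPHC in males and nearly level in females. Nep1 had 1695, 1820.1, 1604, 1672 and 1735 in male HPLC libraries and 2266, 2153, 2223, 2344 and 2347 in male LPHC libraries. All 5 male LPHC libraries were above all 5 HPLC libraries, with means of 1705 ± 80.0 and 2267 ± 82.4 (log2 0.41, SE 0.05). In females Nep1 had 892, 731, 800.5, 839.8 and 760.3 on HPLC and 778, 717, 829, 670.3 and 736 on LPHC. The female groups overlapped across most of their range (means 805 ± 64.0 and 746 ± 60.3, log2 −0.11, SE 0.08). Under equal library totals the sign turned, to 0.05. The annotation places exons of Mipp2, an inositol polyphosphate phosphatase gene, on the opposite strand over part of Nep1, and the strandedness of the counts is not given in the sources used here. Mipp2 stood at group means of 52.5 to 72.1, far below Nep1 in every group, and did not pass the test in either sex (male log2 −0.08, adjusted p = 0.582; female 0.21, adjusted p = 0.485).

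Nep3 had 2299, 2240.0, 2233, 2366 and 2302 in male HPLC libraries, the tightest group of any member, with a coefficient of variation of 2.36%. Male LPHC libraries had 2567, 2641, 2839.8, 2355 and 2893. LPHC replicate 4, at 2355, lay within the HPLC range and the other 4 above it (means 2288 ± 53.9 and 2659 ± 217, log2 0.21, SE 0.06). In females Nep3 had 1122, 1188, 1027, 1105 and 1154 on HPLC and 1067, 1113, 1105, 1072 and 932 on LPHC. The female groups overlapped (means 1119 ± 60.5 and 1058 ± 73.1, log2 −0.08, SE 0.07), and under equal library totals the sign turned, to 0.08. The male difference exceeded the female one by 0.52 (SE 0.09) for Nep1 and by 0.30 (SE 0.09) for Nep3.

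Nep2 differed little between diets in either sex. Male libraries had 855, 931, 795, 811 and 751 on HPLC and 814, 688, 734, 741 and 688 on LPHC. Female libraries had 739, 714, 727, 593 and 639 on HPLC and 749.7, 839, 710.0, 875 and 858 on LPHC. The groups overlapped in each sex, with LPHC lower by 11.5% in males (log2 −0.18, SE 0.07) and higher by 18.2% in females (log2 0.24, SE 0.09). The male sign depended on scaling and stood at 0.07 under equal library totals.

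Nep5 was the scarcest member, and its difference was positive in females and negative in males. Its female HPLC libraries had 8.22, 20.2, 15.7, 12.3 and 9.07, from 5 to 18 reads each, and its female LPHC libraries 115, 116, 130.0, 61.3 and 106, from 80 to 172 reads each. The lowest female LPHC library, replicate 4, was well above the highest HPLC library, replicate 2. The means were 13.1 ± 4.96 and 106 ± 26.2, a ratio of 8.06 and a log2 difference of 2.94 (SE 0.26), or 2.42 with a pseudocount of 8, since adding a constant understates the change of low genes. Male libraries had 29.8, 20.03, 21.9, 31.3 and 19.1 on HPLC and 10.2, 13.9, 6.61, 16.6 and 27.4 on LPHC. These overlapped through LPHC replicate 5, and without it the male difference moved from −0.78 (SE 0.32) to −1.03. The male difference minus the female one was −3.73 on the log2 scale (SE 0.43). In the annotation Nep5 shares exon sequence with RYa-R, a neuropeptide receptor gene on the opposite strand, and unless the counts used strand, reads of the 2 genes cannot be told apart there. RYa-R itself was at 28.4 ± 4.93 on HPLC and 21.8 ± 8.10 on LPHC in females, well below Nep5 on LPHC, and did not pass the test (log2 −0.42, adjusted p = 0.22). In males it was at 51.9 ± 12.3 and 71.7 ± 21.0 (0.45, adjusted p = 0.109), above Nep5 on both diets.

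Levels of different genes were compared per length, as RPKM, computed from the recovered reads and the merged length of the annotated exons. On male HPLC the order was Nep4 (20.6 ± 2.16), Nep3 (18.1 ± 0.422), Nep7 (14.0 ± 0.977), Nep1 (13.6 ± 0.700), Nep2 (10.1 ± 0.838), Nepl4 (0.871 ± 0.0505) and Nep5 (0.237 ± 0.0540). The ranges of Nep4 and Nep3 overlapped, as did those of Nep7 and Nep1, and the other neighbours in this order were apart. On male LPHC it was Nep3 (25.0 ± 2.25), Nep1 (21.6 ± 0.975), Nep4 (19.0 ± 1.82), Nepl4 (16.8 ± 3.45), Nep2 (10.7 ± 0.894), Nep7 (4.30 ± 0.533) and Nep5 (0.173 ± 0.0922). Each of the first 3 overlapped with the next, so the range of Nepl4 met that of Nep4, and Nepl4 was apart from Nep2 below it. Nep7 stood below Nep2 here and above it on male HPLC.

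On female HPLC Nep4 led (14.7 ± 1.26), followed by Nep3 (10.04 ± 0.870), Nep7 (9.82 ± 1.77) and Nep2 (9.44 ± 0.779), whose ranges overlapped from one to the next. Nep1 (7.30 ± 0.685), Nepl4 (0.71 ± 0.128) and Nep5 (0.144 ± 0.0552) followed, each apart from the gene above it. On female LPHC the order was Nep2 (12.5 ± 1.09), Nep4 (11.9 ± 1.41), Nep3 (10.6 ± 0.823), Nep7 (7.72 ± 0.188), Nep1 (7.57 ± 0.626), Nepl4 (6.26 ± 1.21) and Nep5 (1.30 ± 0.327). There the ranges of Nep3 and Nep7 were apart, as were those of Nepl4 and Nep5, and the other neighbours overlapped. On this scale Nep1, Nep3 and Nep4 stood higher in males than in females on both kinds of diet, without overlap, which is given without a test. Neuron markers also took a higher share of male reads, with medians of 0.718% and 0.894% in males and 0.379% and 0.383% in females. So did photoreceptor markers (7.9% and 9.2% against 4.0% and 5.4%), muscle markers (0.372% and 0.751% against 0.289% and 0.279%) and cuticle and tracheal markers. By median, fat body, glia, haemocyte and gut markers took a lower share in males on both kinds of diet. The part of these lists in the levels was not tested.

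**Figure D3:**
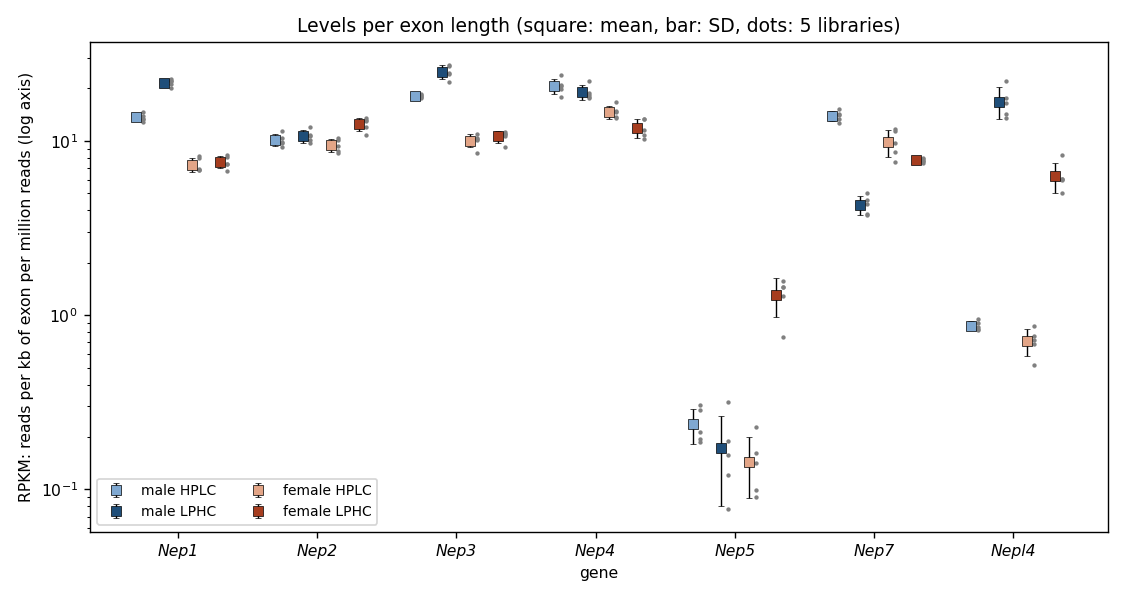
RPKM (reads per kb of merged exons, scaled for recovered reads, log axis) for the 7 genes in each group; squares are means, bars SD and dots the 5 libraries. On LPHC Nepl4 moves from rank 6 to rank 4 of the 7 genes in males, at 16.8. In females it rises from 0.71 to 6.26 and keeps rank 6. Nep5 stays the lowest in all 4 groups.

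The make-up of the neprilysin RNA, which does not depend on how libraries are scaled, was set out as shares. Nepl4 made up 0.663% ± 0.0363 of the reads of the 7 genes on male HPLC and 10.1% ± 2.21 on male LPHC. In females its share was 0.832% ± 0.155 and 6.78% ± 1.03. The share of Nep7 went from 10.8% ± 0.735 to 2.62% ± 0.292 in males and from 11.7% ± 2.20 to 8.55% ± 0.481 in females. Nep5 held 0.288% ± 0.107 in female HPLC and 2.42% ± 0.610 in female LPHC libraries. In males Nep3 held the highest mean share on both diets, 28.9% ± 0.870 and 31.6% ± 2.26, while Nep4 held 27.3% ± 2.64 and 19.9% ± 1.42. On male HPLC their ranges overlapped, at 27.8% to 30.1% for Nep3 and 23.9% to 31.2% for Nep4. Of all reads of the M13 genes in the tables, the 7 genes took 23.9% ± 0.843 on male HPLC and 45.0% ± 1.50 on male LPHC. In females they took 10.9% ± 1.65 and 14.5% ± 1.20.

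The other 20 M13 genes in the tables, which were not on the list, mostly fell in males. They comprise Nep6, most Nepl genes, frma and goe (gone early, known from the germ line). Of 19 tested in males, 15 fell and 2 rose at an adjusted p under 0.05, where 29.6% of all genes tested fell and 27.6% rose. Rises were 48.3% of all male calls and 53.05% of all female calls, and under equal library totals 75.1% and 81.4%. The median difference of the 19 other M13 genes tested in males was −1.50. Nepl18 went from 2458 ± 262 to 266 ± 42.0 (−3.21, SE 0.10, adjusted p = 4.33e-12), and Nepl11 (−2.71), Nepl13 (−2.70), Nepl14 (−2.45), Nepl20 (−2.15) and Nepl21 (−2.13) fell by more than Nep7. Nepl19 (−1.65), Nepl15 (−1.59), Nepl12 (−1.56), frma (−1.38), Nep6 (−0.90), Nepl9 (−0.77) and Nepl10 (−0.46) fell less, and under equal library totals the call of Nepl10 was lost (adjusted p = 0.115). The 2 that rose were Nepl17 (0.59, adjusted p = 2.1e-06) and Nepl16 (0.29, adjusted p = 0.000812). Nepl3 (0.32, adjusted p = 0.278) and goe (−0.13, adjusted p = 0.127) did not pass, and Nepl8 was too low to test in males. Among the M13 genes tested in males, only the listed gene Nepl4 had a difference above 1 on the log2 scale. Since the list was chosen by these contrasts, nothing is read from its being on the list.

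Of the same 20 genes in females, 10 fell and 4 rose, beside 14.8% and 16.7% of all genes tested, with a median of −0.42. The falls were Nepl11 (−1.40), Nepl21 (−1.16), Nep6 (−1.02), Nepl20 (−1.002), Nepl6, Nepl12 (−0.96), Nepl9 (−0.89), frma (−0.71), Nepl5 and Nepl18 (−0.51, a call lost under equal library totals with adjusted p = 0.0537). The rises were Nepl8 (2.10, from 12.5 ± 7.50 to 51.6 ± 16.1), Nepl15 (1.22), Nepl3 (1.08) and Nepl14 (0.45). Female Nepl8 had a normalised count of 10 or more in 2 HPLC and 5 LPHC libraries, and Nepl3 in 3 and 5. The LPHC group alone thus admitted both to the test, and their calls are a description. The difference between sexes passed for 13 of 19 genes tested in both, where 52.3% of all genes passed. For 11 of them the male value was the lower. Nepl15, studied in flies for its part in storing nutrients, went from 2694 ± 371 to 893 ± 104 in males and from 2629 ± 575 to 5990.1 ± 648 in females (difference −2.80, SE 0.19, adjusted p = 4.53e-11). Its neighbours Nepl14 (−2.90) and Nepl13 (−2.65), which lie side by side with it on the same strand, differed between the sexes by a like amount. The fat body markers, lower in males on LPHC, numbered 4 rises and 4 falls among 12 tested in females.

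**Figure D4:**
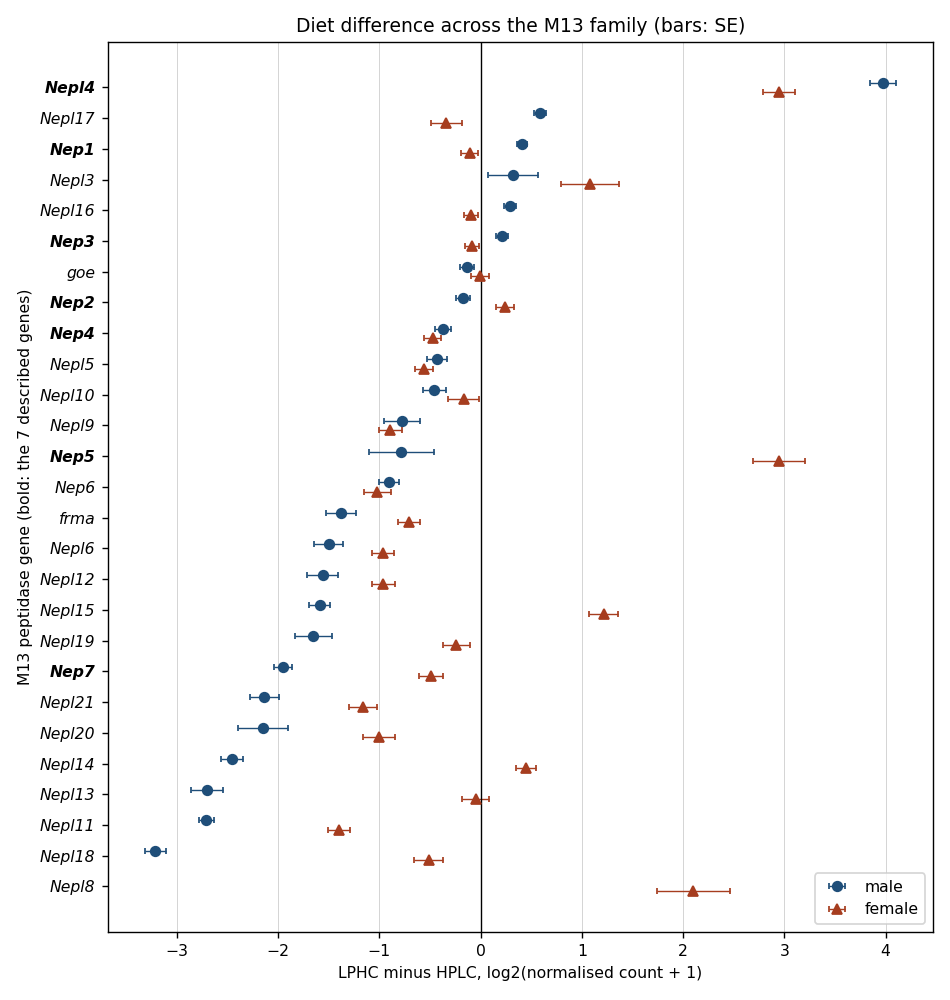
LPHC minus HPLC difference on the log2(normalised count + 1) scale (horizontal axis) for each M13 gene, males as circles and females as triangles with SE bars, ordered by the male value. Nepl4 lies farthest to the right in both sexes with Nep5 beside it in females, and Nep7 lies among the genes that fell in males.

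For each gene the 3 genes with the most similar pattern were found over the 20 libraries, by Pearson's r after the mean of each table was subtracted. These values share the diet groups and are a description; r after subtraction of the 4 group means is given second. Nepl4 was most like Root (0.976 and 0.304), Drat (0.957 and −0.0874) and capt (0.945 and 0.103), so its likeness lay in the group means and hardly in the spread within groups. Nep7 was most like the M13 gene Nepl18 (0.989 and 0.842), Mtp (0.987 and 0.714) and ry (0.986 and 0.666), which it followed within groups as well. Nep3 was most like Ac3 (0.939 and 0.891), Syt12 (0.934 and 0.87) and CG2993 (0.922 and 0.849). Nep1 was most like Actn (0.946 and 0.818), CG9776 (0.934 and 0.694) and sqa (0.929 and 0.669). Nep2 was most like CG3448 (0.874 and 0.842), rtet (0.864 and 0.744) and CG10939 (0.858 and 0.77). Nep4 was most like CG14857 (0.898 and 0.603), Cyp9h1 (0.889 and 0.492) and bru1 (0.888 and 0.493), and Nep5 most like Srp54 (0.942 and 0.568), mal (0.937 and 0.524) and CG11438 (0.924 and 0.426). Each gene had other nearest genes, and no member was among the nearest genes of another. With only 3 taken from 9766 genes, that says little about whether the members vary together.

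Peptidases of other families that act on small peptides were counted for comparison. Of 19 tested in males 12 fell and 2 rose (median −0.42), and of 19 in females 9 fell and 4 rose (median −0.04). Of all genes 29.6% fell and 27.6% rose in males, and 14.8% fell and 16.7% rose in females, so the female rises were near the background. The 2 male rises were 1 without male HPLC replicate 2, 4 or 5, and the 9 female falls were 5 without female HPLC replicate 2 or female LPHC replicate 5. In males Ance-5 (−3.55), Ance-4 (−3.06), CG2493 (−2.76), CG11951 (−1.67) and the dipeptidyl peptidase gene ome (−1.13) fell. In females Acer (−1.18), Ance-4 (−1.08), CG31445 (−0.99) and CG2493 (−0.55) fell and Ance-3 rose (0.59). Ance and Acer belong to the angiotensin-converting enzyme family. Equal library totals gave 7 rises in males, and 7 rises and 5 falls in females.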

How the data were processed

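Brain RNA libraries were compared between diets within each sex. Per the submitters' processing notes, HISAT2 aligned the reads. How reads were counted, on which build and annotation and with which strand setting, is not given in the sources used here. The authors deposited a signal per gene and library in 1 table for each sex, of 12206 genes for males and 12015 for females: counts scaled by a single factor for each library. The names of the deposited tables state DESeq2 and no lncRNA. All per-sample columns were used. In each library 100% of values gave a whole number of reads (tolerance 0.01), so whole reads were recovered. Between replicates the chi-square was at least 7.55 per degree of freedom, and none agreed within sampling noise.

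Genes with a normalised count of 10 or more in at least 5 libraries were tested with limma 3.58.1 (R 4.3.3, intensity trend, two-sided) on log2(value + 1), with Benjamini-Hochberg adjustment over all tested genes at 0.05. P-values measure the spread between libraries, which may be technical. The difference between sexes was fitted over both tables, where a scale factor per table cancels. edgeR 4.0.16 and DESeq2 1.42.0 on the recovered reads, other pseudocounts, filters and scalings, a replicate block and each library left out were alternatives. The fit was also run on simulated counts with a single setting of spread for all genes, which does not speak to genes with a larger spread. Neighbours, overlaps and exon lengths came from Ensembl release 115 of BDGP6, and 12106 of 12441 gene names matched it or RefSeq. Its coordinates are not printed. Protein and promoter sequences were not used here. Python 3.11.15 with pandas 2.3.3 did the rest.

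The members, gene lists and alternatives were chosen with earlier results of these data known. Named genes are the 7 members, every other M13 gene with a value, the 5 other peptidases with the smallest p in each sex, the 3 genes most like each member, and up to 5 neuropeptide genes called in opposite directions. The neighbours slam, RYa-R and Mipp2 were taken from the annotation. The shares of the marker lists for haemocytes, photoreceptors, gut, cuticle and trachea, and male reproductive tract are given at the end.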

Additional observations from a re-analysis of the deposited data

Results flagged for a closer look

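Among the 27 M13 genes, 108 groups of 5 libraries were examined for a library that stood far from the other 4 (Dixon's test at 95%), which chance would find in about 1 in 20 groups. It found 7, of which 2 were among the 28 groups of the listed genes. Nep3 was low in female LPHC replicate 5, at 931.8 against 1067 to 1113, and Nep4 high in male LPHC replicate 3, at 1936 against 1549.6 to 1649. Nep6 was high in male LPHC replicate 4 (1346 against 969.99 to 1074) and Nepl10 low in male HPLC replicate 3 (135 against 175 to 191). Nepl15 was low in female HPLC replicate 4, at 1613 against 2792 to 3029.6. Nepl18 was high in male LPHC replicate 4 (339 against 236 to 262) and low in female LPHC replicate 1 (2788 against 3384 to 3581).

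Diet effects that differed between the sexes, tested in 1 limma fit over both tables, were found for genes off the list. The male effect was lower than the female one for Nepl14 (−2.90), Nepl15 (−2.80), Nepl18 (−2.70), Nepl13 (−2.65), Nepl19 (−1.41), Nepl11 (−1.31), Nepl20 (−1.15), Nepl21 (−0.97), frma (−0.67), Nepl12 (−0.60) and Nepl6 (−0.54). It was higher for Nepl17 (0.92) and Nepl16 (0.39). Among other peptidases it was lower for Ance-5 (−3.56), CG2493 (−2.21), Ance-4 (−1.98), CG11951 (−1.32), ome (−0.66), CG31445 (−0.64) and Ance-3 (−0.62) and higher for Acer (1.42). Among neuropeptide genes it was lower for CCHa2 (−3.47) and higher for Proc (1.32), AstC (1.19), Dsk (1.10) and Mip (0.997). For the listed genes this difference was not tested.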

How the results depend on the processing

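With libraries of a table scaled to the same total of reads the median gene moved by 0.25 in males and 0.16 in females. The male differences then became 0.66 for Nep1, 0.0741 for Nep2, 0.46 for Nep3, −0.12 for Nep4, −1.70 for Nep7 and 4.22 for Nepl4, and the female ones 0.0540 for Nep1, 0.40 for Nep2, 0.0798 for Nep3 and −0.31 for Nep4. Nep2 in males and Nep1 and Nep3 in females thereby changed sign. At the same upper quartile the male values were 0.56 for Nep1, −0.0254 for Nep2, 0.36 for Nep3 and −0.22 for Nep4. A pseudocount of 8 gave 2.42 for Nep5 in females. Of 279 values of the listed genes under an alternative, 264 moved by less than the SD between libraries, 12 moved further and 3 changed sign. The filters, a robust variance setting and the replicate block cannot change these differences, so part of the 264 was fixed in advance. Same-total scaling gave 5610 higher and 1861 lower male genes and 3190 higher and 729 lower female genes, and the upper quartile 4540 higher male genes. It gave 7 higher peptidases of other families in males (5 at the upper quartile), 7 higher and 5 lower in females (5 lower at the upper quartile), and 4 lower neuropeptide genes in females. Leaving out 1 library gave 1 to 2 higher male and 5 to 8 lower female peptidases. At the same total, the calls of Nepl5 (adjusted p = 0.109) and Nepl10 (0.115) in males and Nepl18 in females (0.0537) were lost and Nepl3 in males was gained (0.0452). Without male LPHC replicate 1 Nepl3 passed in males (0.00839), and without female HPLC replicate 3 Nepl17 passed in females (0.0234) and Nepl10 between sexes (0.0436). The cause was not tested.

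Replicate numbers did not pair the libraries: same-numbered libraries correlated at −0.23 to 0.05 in their deviations, and 0 of 10 correlated best with their own number. With the replicate number as a block 2520 male genes were higher and 2834 lower, and 1410 female genes were higher and 1199 lower. No count of M13 genes changed. Depth limits Nep5 most, at 5 reads in 1 female HPLC library.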

Other observations

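Genes for the precursors of neuropeptides and peptide hormones, the kind of peptide that neprilysins cut, were counted as a list. Of 34 tested in males 22 rose and 3 fell on LPHC (median 0.51), and of 32 tested in females 4 rose and 9 fell (median −0.13), or 4 fell under equal library totals. In males 27.6% of all genes rose and 29.6% fell, and in females 16.7% and 14.8%. The difference between sexes was tested for single genes and not for the list. Of the precursors that passed in both sexes in opposite directions, CCHa2, a nutrient-dependent peptide hormone, fell in males (−2.93) and rose in females (0.54). Proc (0.90 and −0.42), AstC (0.81 and −0.39), Dsk (0.76 and −0.34) and Mip (0.77 and −0.22; female adjusted p = 0.0498) rose in males and fell in females. Neuron markers took a higher share of male reads on LPHC, where the median gene also rose by 0.27 under equal library totals. With the deposited scaling 5 of 14 neuron markers rose and 1 fell in males (median 0.14). In females 0 rose and 2 fell of 14 (median −0.13). The part of neuron markers in the differences of the precursors was not tested.

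Other marker lists had these shares. Photoreceptor markers took 7.81% to 8.45% of reads on male HPLC, 8.19% to 9.94% on male LPHC, 3.09% to 4.85% on female HPLC and 4.96% to 6.38% on female LPHC. Haemocyte markers took 0.07% to 0.0856% and 0.0503% to 0.0708% in males and 0.0845% to 0.11% and 0.0996% to 0.122% in females. Gut markers took 0.117% to 0.146% and 0.0138% to 0.0241% in males and 0.154% to 0.194% and 0.0874% to 0.115% in females. Cuticle and tracheal markers took at most 0.0185% of reads in any library and male reproductive tract markers at most 0.000514%.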
